A study of Mus musculus with 3 samples.

Results

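Transcripts of 8 complement genes, C3, C4b, C2, Cfb, Cfd, Serping1, Cd55 and Cd59a, were examined in wounded mouse fibroblasts that received the soluble micrograft (MG) together with the MEK inhibitor PD0325901. The genes were taken by name from a table of 43472 rows, and all 8 were found. The cells were primary fibroblasts from the tail tip of C57BL/6 mice, scratched in culture and treated for 5 h with MG, the cell-free extract of disrupted mouse skin, and with PD0325901, which blocks the kinase upstream of ERK. All 3 libraries analysed here are labelled as replicates of this condition, numbered 1, 2 and 3. Whether they are biological replicates, and whether each came from another animal, is not stated. Untreated and MG-only cells were not analysed here, so the values describe levels under MG + PD0325901 and not a response to either agent. The values are normalized counts, that is, read counts divided by 1 size factor per library, and where the libraries are given side by side they stand in the order of replicates 1, 2 and 3.

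Complement is a cascade of blood and tissue proteins that tags cells and microbes for removal. In the classical pathway the C1 proteases cut C4 and C2, in the alternative pathway factor D cuts factor B, and both routes lead to enzymes that cleave C3, whose fragments bind covalently to nearby surfaces and attract leukocytes. Host cells protect themselves with inhibitors such as the C1 inhibitor, decay-accelerating factor (CD55) and protectin (CD59). The liver makes most complement of the blood, whereas fibroblasts and other cells of the skin can make components locally, mainly in inflammation.

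Total depth was 22540518, 27037783 and 17244505 reads on genes in replicates 1, 2 and 3. All 9 fibroblast markers were detected, a term used here for a gene at 10 normalized counts or more in each library. Of the lists for other cells, 4 of 10 leukocyte, 1 of 7 adipocyte, 1 of 5 keratinocyte, 1 of 5 endothelial, 1 of 3 Schwann and 1 of 4 skeletal muscle markers passed this minimum. Replicate 2 stood further from the others than they did from each other, with 5.2% of 13154 genes more than 2-fold above and 4.87% more than 2-fold below both. The same shares were 2.29% and 1.97% for replicate 1 and 1.28% and 2.3% for replicate 3.

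Upstream sequence is shown for the detected members with a more than 2-fold range between libraries, C3, Cd55 and Cd59a, and for Cfd, from which no read was counted. RefSeq promoters (GRCm38.p6) were matched for 4 of the 8 genes, and the 250 bases before the transcription start are printed 5′ to 3′ on the strand of the gene. Capitals mark letters found on either strand for the NF-kB consensus, the interferon response consensus, C/EBP (TTNNGNAA), STAT factors (TTCNNNGAA) and AP-1 (TGANTCA). C3 lies at chr17:57228137-57228386 on the minus strand, Cd55 at chr1:130462745-130462994 on the minus strand, Cd59a at chr2:104095551-104095800 on the plus strand and Cfd at chr10:79890603-79890852 on the plus strand.
C3: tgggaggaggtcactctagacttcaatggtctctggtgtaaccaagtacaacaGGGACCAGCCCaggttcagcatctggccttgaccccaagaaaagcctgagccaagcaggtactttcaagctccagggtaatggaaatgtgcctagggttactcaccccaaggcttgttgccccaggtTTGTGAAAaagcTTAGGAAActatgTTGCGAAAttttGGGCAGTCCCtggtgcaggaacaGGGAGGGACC
Cd55: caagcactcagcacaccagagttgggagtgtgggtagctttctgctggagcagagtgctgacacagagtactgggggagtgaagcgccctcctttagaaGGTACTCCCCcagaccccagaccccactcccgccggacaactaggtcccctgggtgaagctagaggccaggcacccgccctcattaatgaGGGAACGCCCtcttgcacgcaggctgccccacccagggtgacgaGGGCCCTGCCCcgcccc
Cd59a: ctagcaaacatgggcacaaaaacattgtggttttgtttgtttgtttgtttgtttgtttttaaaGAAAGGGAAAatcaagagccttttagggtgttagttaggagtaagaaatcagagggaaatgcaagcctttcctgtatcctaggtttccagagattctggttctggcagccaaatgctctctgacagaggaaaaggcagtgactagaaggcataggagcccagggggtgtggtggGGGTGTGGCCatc
Cfd: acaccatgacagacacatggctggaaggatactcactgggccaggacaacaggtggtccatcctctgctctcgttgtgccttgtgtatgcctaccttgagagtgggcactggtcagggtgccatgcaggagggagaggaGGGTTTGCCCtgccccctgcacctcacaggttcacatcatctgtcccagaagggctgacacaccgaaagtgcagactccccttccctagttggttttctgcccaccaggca
The C/EBP letters occurred at 3 places before C3, from -70 to -63, -58 to -51 and -45 to -38, counted back from the start. At least 1 such match was found in 36.8% of 32851 promoters, and 3 or more, a limit equal to the count before C3, in 2.61%. NF-kB letters were found at 4 places, some of them overlapping, before both C3 and Cd55, and at 1 place before Cd59a and Cfd. Of all promoters 45.8% held at least 1, and the share with 4 or more was not computed. Before Cd59a a match to the interferon letters ran from -187 to -178, and 2.98% of promoters held one. STAT letters, in 7.02% of promoters, and AP-1 letters, in 6.75%, were in none of these 4 windows. A match is a description of the letters and not a site of binding.

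Of the 8 genes, 5 were detected, namely C3, C2, Serping1, Cd55 and Cd59a, while C4b passed 10 normalized counts in replicate 2 alone and Cfb and Cfd in no library. The detected genes thus held the central component, a classical pathway protease and all 3 inhibitors, and neither protease of the alternative pathway. For comparison, 60.1% of the 20322 genes with reads in the table were detected, so the count of 5 says little about the 8 genes as a set. In bulk RNA, a smaller share of expressing cells and less RNA per cell cannot be told apart.

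**Figure D1:**
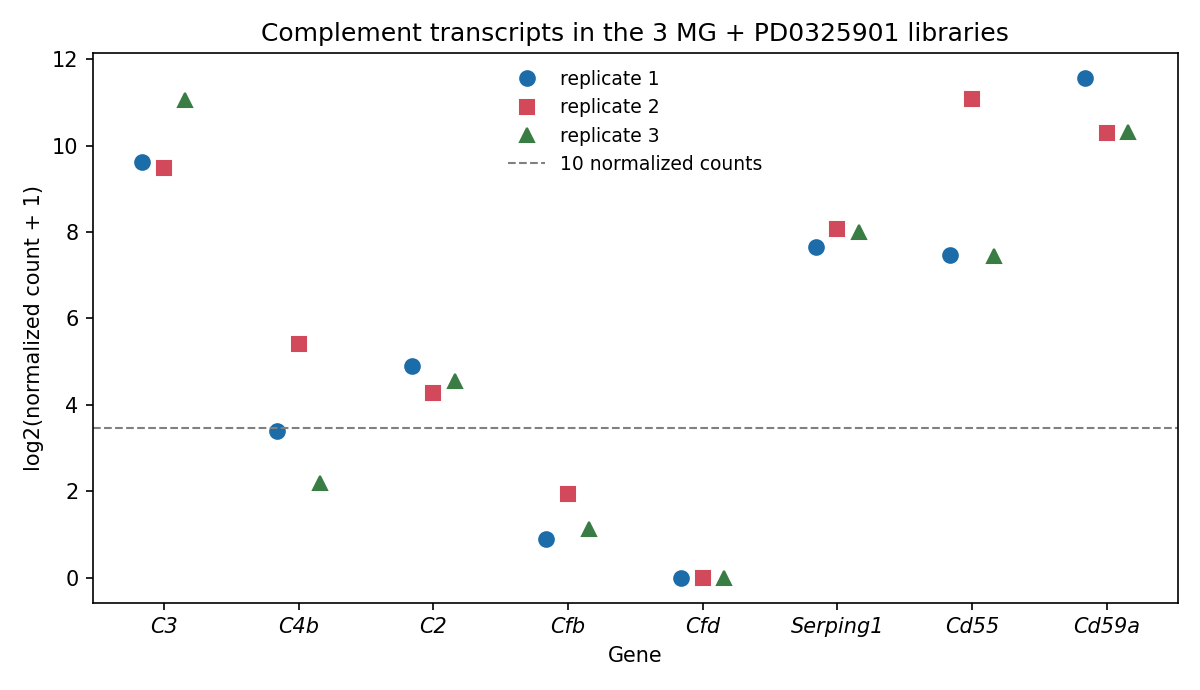
Each point is log2(normalized count + 1) of 1 complement gene in 1 of the 3 MG + PD0325901 libraries, and the dashed line marks 10 normalized counts. Cd55 stands high in replicate 2, C3 in replicate 3 and Cd59a in replicate 1, Serping1 varies little, and Cfd is at 0.

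C3 encodes the protein on which all activation routes converge. It had 782, 712 and 2113 normalized counts, and the mean was 1202 ± 789.9 (SD, n = 3). Replicate 3 stood alone, 2.70-fold above the next library, while the other libraries differed by 1.10-fold, and without replicate 3 the mean was 747. The difference between replicates 1 and 2 did not pass the exact binomial test on reads (two-sided, Benjamini-Hochberg adjusted p = 0.0624), whereas replicate 3 differed from both. This test compares libraries, not conditions, and covers counting error only. The summed level of the 10 leukocyte markers was also highest in replicate 3, at 396, 436 and 1211 normalized counts, and 6 of the 10 were highest there. Of the 4 detected markers, Lyz2 and Cd14 were highest in replicate 3 and Csf1r and Cd68 in replicate 2. Lyz2 had 123, 62.7 and 601 normalized counts, while the defining marker Ptprc was between 0.705 and 1.74 in all libraries. The part of leukocytes, if present, in the C3 level was not tested. The 9 fibroblast markers also summed highest in replicate 3, at 347294, 386944 and 512836 normalized counts, and 5 of the 9 were highest there. None of these 9 was more than 2-fold above both other libraries in replicate 3. Among the 6 leukocyte markers with a mean of at least 10, Lyz2, Laptm5 and Adgre1 were, and Csf1r, Cd68 and Cd14 were not. Laptm5 and Adgre1 lay below 10 in replicates 1 and 2 and so reached that mean only through replicate 3. C3 (chromosome 17, 57203970 to 57228136, minus strand, GRCm38) shares no exonic base with another annotated gene, and none of its 50-base stretches was found in a transcript of another gene.

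C4b, whose product is cut by C1s to start the classical C3 convertase, was at the limit of detection outside replicate 2. It had 9.55, 41.6 and 3.56 normalized counts, from 11, 59 and 3 reads. Replicate 2 was above both others beyond counting error (exact binomial test, adjusted p = 1.19e-06 against replicate 1 and 1.58e-08 against replicate 3), whereas replicates 1 and 3 were not separated (adjusted p = 0.271). Its copy C4a, further along the same cluster on chromosome 17, had 8.68, 8.46 and 10.7 normalized counts. Of the 50-base stretches of C4b transcripts, 34.6% also occur in C4a, and reads from them would not have been unique, so the C4b level is uncertain. Without replicate 2 its mean fell from 18.2 to 6.55 normalized counts.

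C2 encodes the protease that joins C4b in the classical C3 convertase. It had 28.7, 18.3 and 22.5 normalized counts, and the mean was 23.2 ± 5.20 (SD, n = 3) from 19 to 33 reads. No pair of libraries differed by the exact binomial test (adjusted p between 0.15 and 0.671).

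Cfb encodes factor B, the corresponding protease of the alternative pathway, and Cfd encodes factor D, or adipsin, which activates it. Cfb was counted by 1, 4 and 1 reads, which equal 0.868, 2.82 and 1.19 normalized counts. Cfd had 0 reads in each library, which allows up to 2.61, 2.11 and 3.56 normalized counts (3 reads). Cfd is a classical adipocyte gene, and the adipocyte list summed to 2189.95, 379 and 423 normalized counts. Nearly all of this was Fabp4, with 2185, 376 and 422, while the defining marker Adipoq had 3.47, 0 and 0 and Cidec and Lep had 0 reads.

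The Cfb and C2 values carry a limit from the annotation. The genes lie 85 bp apart on the minus strand of chromosome 17, Cfb from 34856374 to 34862518 and C2 from 34862604 to 34898265 (GRCm38). A further gene, Gm20547 (34856412 to 34882042), runs across both on the same strand. It shares 2246 of the 2825 exonic bases of Cfb (79.5%) and 1656 of 3872 of C2 (42.8%), and it is listed in the table with 0 reads in every library. In its default mode HT-Seq count leaves out reads that fall on more than 1 gene, and the mode used is not stated. The exonic bases free of any other gene of the table were 579 for Cfb (20.5%) and 2055 for C2 (53.1%), so an absence of Cfb transcripts cannot be read from these counts. No such overlap exists for Cfd, which lies on chromosome 10 from 79890853 to 79892655.

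All 3 inhibitors were detected, a soluble one and a pair on the membrane. Serping1 encodes the C1 inhibitor, a secreted serpin that blocks C1r and C1s. It had 199.7, 267 and 254 normalized counts with a mean of 240.1 ± 35.6 (SD, n = 3), and its highest library was 1.34-fold above the lowest. Replicate 1 was the lowest by a small margin, with an adjusted p of 0.000989 against replicate 2 and of 0.0288 against replicate 3 (exact binomial test). With libraries scaled to equal totals the latter was 0.0798, and this was the call that another scaling changed.

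Cd55, the membrane protein that speeds the decay of C3 convertases, had 177, 2149 and 173 normalized counts. Replicate 2 was 12.1-fold above the next library, and replicates 1 and 3 differed by 1.02-fold (exact binomial test, adjusted p = 0.928). Its mean of 833 ± 1139.7 (SD, n = 3) therefore describes no single library, and without replicate 2 the mean was 175. Among the 9 fibroblast markers, Thy1 was more than 2-fold higher in replicate 2 than in both others, with a 9.54-fold range, whereas Dcn and Lum were more than 2-fold lower there and the other 6 were not apart in it. Endothelial markers summed to 90.3, 244 and 55.7 normalized counts, of which Tek made up 6.95, 185 and 2.37. The 1 detected endothelial marker, Egfl7, was highest in replicate 1, with 69.5, 53.6 and 49.8, and Pecam1, Cdh5 and Kdr were at most 9.55. Skeletal muscle markers summed to 213, 1208 and 78.2, almost wholly through Des, while Myod1 had 0 reads and Myog and Ckm at most 1 read in any library. Whether endothelial or muscle cells were present, and their part in the Cd55 level, was not tested. Of 4801 stretches of 50 bases in Cd55 transcripts (chromosome 1, 130439027 to 130462744, minus strand), 384 also occur in its copy Cd55b, which had at most 1.19 normalized counts.

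Cd59a encodes protectin, the membrane protein that stops assembly of the membrane attack complex. It had 3029, 1261 and 1275 normalized counts, and the mean was 1855 ± 1016 (SD, n = 3). Replicate 1 was 2.37-fold above the next library, while replicates 2 and 3 differed by 1.01-fold (exact binomial test, adjusted p = 0.846). The adipocyte list given above was also highest in replicate 1, through Fabp4, with Adipoq near 0, and its part in the Cd59a level was not tested. Its copy Cd59b, 4613 bp upstream on chromosome 2, had 92.0, 23.3 and 39.1 normalized counts and was likewise highest in replicate 1. They share 3.87% of the 50-base stretches of Cd59a (chromosome 2, 104095801 to 104115354, plus strand).

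Levels of different genes were compared per kb of exonic length. Cd59a led at 1024 ± 561 (SD, n = 3) on this scale, and its lowest library lay above the highest library of every other member. C3 followed with 234 ± 154, Cd55 with 172 ± 235 and Serping1 with 103 ± 15.3 normalized counts per kb, and the ranges of neighbours in this order overlapped. With the longest transcript as length, or without replicate 3, Cd55 passed C3, and without replicate 2 it fell below Serping1. C2 with 5.98 ± 1.34, C4b with 3.20 ± 3.59 and Cfb with 0.575 ± 0.370 normalized counts per kb were far lower. Over the exonic bases free of other genes alone, C2 came to 11.3 ± 2.53 and Cfb to 2.80 ± 1.81, upper values if reads on shared bases were counted as well. The lowest library of Serping1, at 85.9, was above the highest of C2, at 7.40, whereas the ranges of C2, C4b and Cfb overlapped their neighbours. Among 12046 detected genes with a known length, Cd59a stood at percentile 91.9, C3 at 69.3, Cd55 at 62.2, Serping1 at 49.2 and C2 at 3.66. The 3 inhibitors together made up 91.8%, 89.2% and 67.0% of the summed per-kb level of the 8 genes in replicates 1, 2 and 3. The level of Cd59a was 11.0, 5.03 and 1.71 times that of C3 in these libraries.

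**Figure D2:**
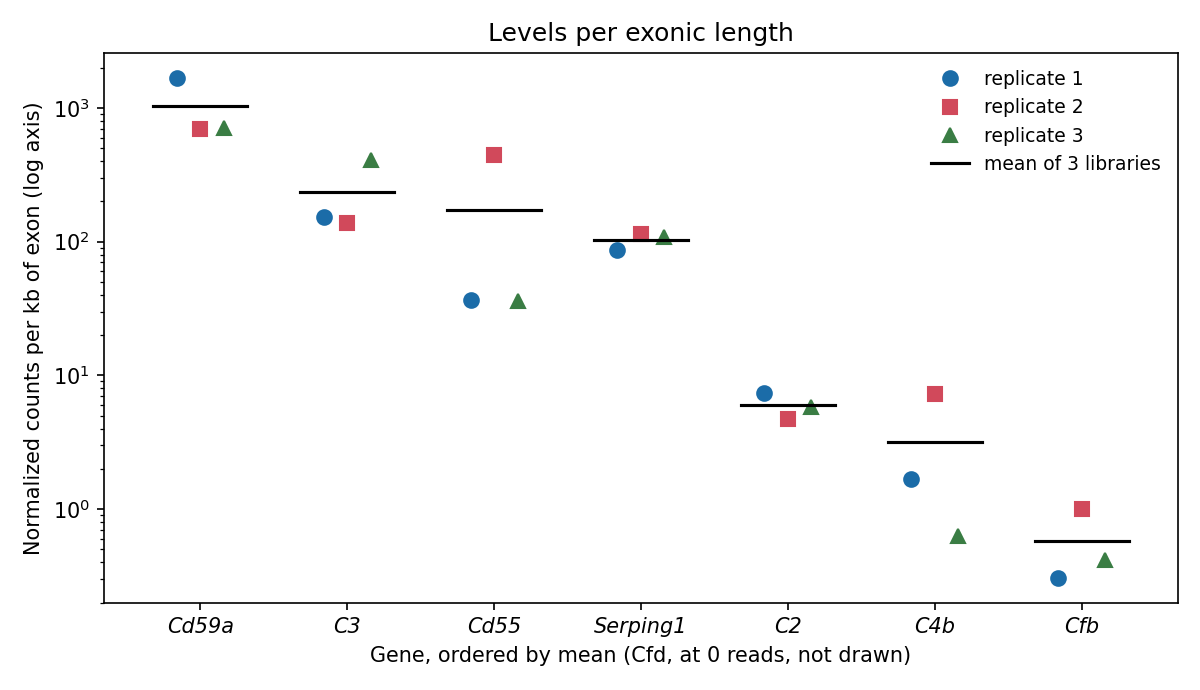
Points are normalized counts per kb of merged exons in each of the 3 libraries on a log axis, and bars are means, for the 7 members with reads. Cd59a lies above all other members in every library, while the points of Cd55 span those of C3 and Serping1, and C2, C4b and Cfb lie at 7.40 or below.

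The members differed between replicates in different directions. Of 6 members with a mean of at least 10 normalized counts, 4 had a replicate more than 2-fold from both others, against 15.8% of 13154 genes. C4b, among these, averaged 6.55 without replicate 2 and so passed the minimum only through the library in which it stood highest. Its place in these counts therefore follows in part from the filter. Replicate 2 was above both others in C4b and Cd55 (background 5.2%), replicate 1 in Cd59a (2.29%) and replicate 3 in C3 (1.28%), and replicate 3 was below both in C4b (2.3%), on 3 reads. By the exact binomial test replicate 2 differed from replicate 1 in 4 of the 6 members tested, against 68.4% of all genes. Replicate 3 differed in 3 of 6 both from replicate 1 (background 51.1%) and from replicate 2 (62%), so these counts were near the background. Counting only calls that also exceeded 2-fold gave 3 (background 19.8%), 2 (8.78%) and 3 (16.1%) of 6 for the same pairs. On the scale of log2(normalized count + 1), the SD over libraries had a median of 0.72 over the 5 detected members and 0.30 over all 12204 detected genes. With a replicate left out the median of the members lay between 0.20 and 0.44, and no all-gene median is given for those runs. Cd55 had an SD of 2.08 at percentile 99.7 of detected genes, C3 0.87 at percentile 93.1 and Cd59a 0.72 at percentile 89.1. C2 at percentile 51.9 and Serping1 at 33.7 lay within the bulk of genes. The SD of C2 was 22.4% of its mean, and counting error at its fewest reads was 22.9%. Its spread beyond counting error therefore cannot be read from these values.

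**Figure D3:**
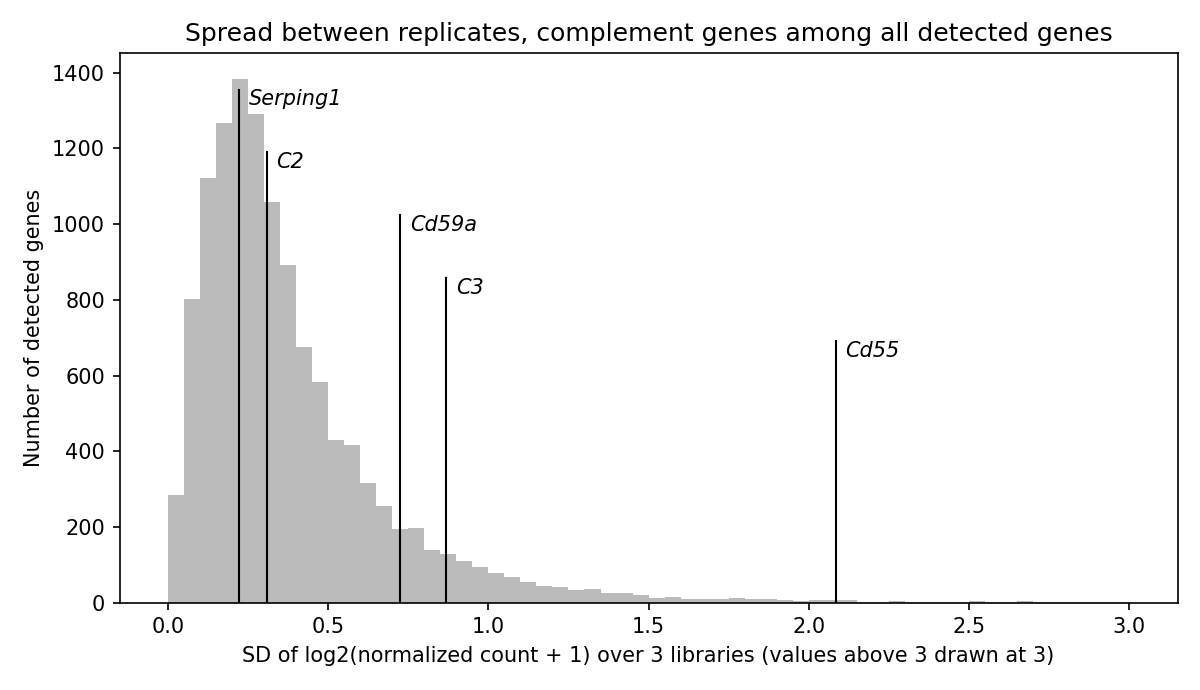
The histogram shows the SD of log2(normalized count + 1) over the 3 libraries for 12204 detected genes, and lines mark the 5 detected complement genes. Serping1 and C2 lie within the bulk of genes, Cd59a and C3 in the upper part and Cd55 at 2.08.

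The rest of the pathway was read from 46 further complement genes, of which 11 had 0 reads. Of the 35 with reads 11 were detected (31.4%), against 60.1% of 20322 genes with reads in the table. Among 17 recognition molecules and early proteases 5 were detected, and these included the proteases of the C1 complex. C1ra had 455, 325 and 414 normalized counts, and C1s1 had 381, 247 and 369.8. The others were C1rl with 161 ± 46.9 normalized counts (SD, n = 3), the lectin pathway protease Masp1 with 332 ± 136 and the scavenger receptor collectin Colec12 with 2709 ± 1444. The C1q chains, which are typical of macrophages, were below the minimum and highest in replicate 3, with 4.34, 5.64 and 37.9 for C1qa, 0.868, 4.93 and 59.3 for C1qb and 0, 7.75 and 20.1 for C1qc. None of the 8 central and terminal components was detected. Hc, the gene of C5, and C7, C8a and C8b had 0 reads, C6 and C9 had 1 read each over the 3 libraries, and C8g, the gene of a C8 chain, had 17.4, 4.93 and 3.56 normalized counts.

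Further regulators were present beside those of the 8 genes. Cr1l, the rodent membrane inhibitor Crry, had 1019, 949.8 and 1190.01 normalized counts, and varied little with a 1.25-fold range. Clu, the gene of the secreted inhibitor clusterin, had 845, 292 and 901 and was more than 2-fold lower in replicate 2. Cfp, which encodes properdin, the stabiliser of the alternative C3 convertase, had 108, 82.4 and 117 normalized counts. Susd4 and Cd59b were detected as well, both more than 2-fold higher in replicate 1, whereas Cd46 had at most 8.68 normalized counts. Of 7 receptors only C5ar1, a receptor of the C5 fragment C5a, was detected, with 315, 40.9 and 216 normalized counts, more than 2-fold lower in replicate 2. C3ar1, the receptor of C3a, had 2.61, 12.7 and 5.93, and the leukocyte integrin gene Itgb2 had 3.47, 1.41 and 34.4. Of the 15 further genes with a mean of at least 10, 8 had a replicate more than 2-fold from both others, against 15.8% of 13154 genes. Among the 8, C1qa, C1qb and Itgb2 reached that mean only through replicate 3, the library in which they stood above both others. Their place in this count therefore follows in part from the filter.

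**Figure D4:**
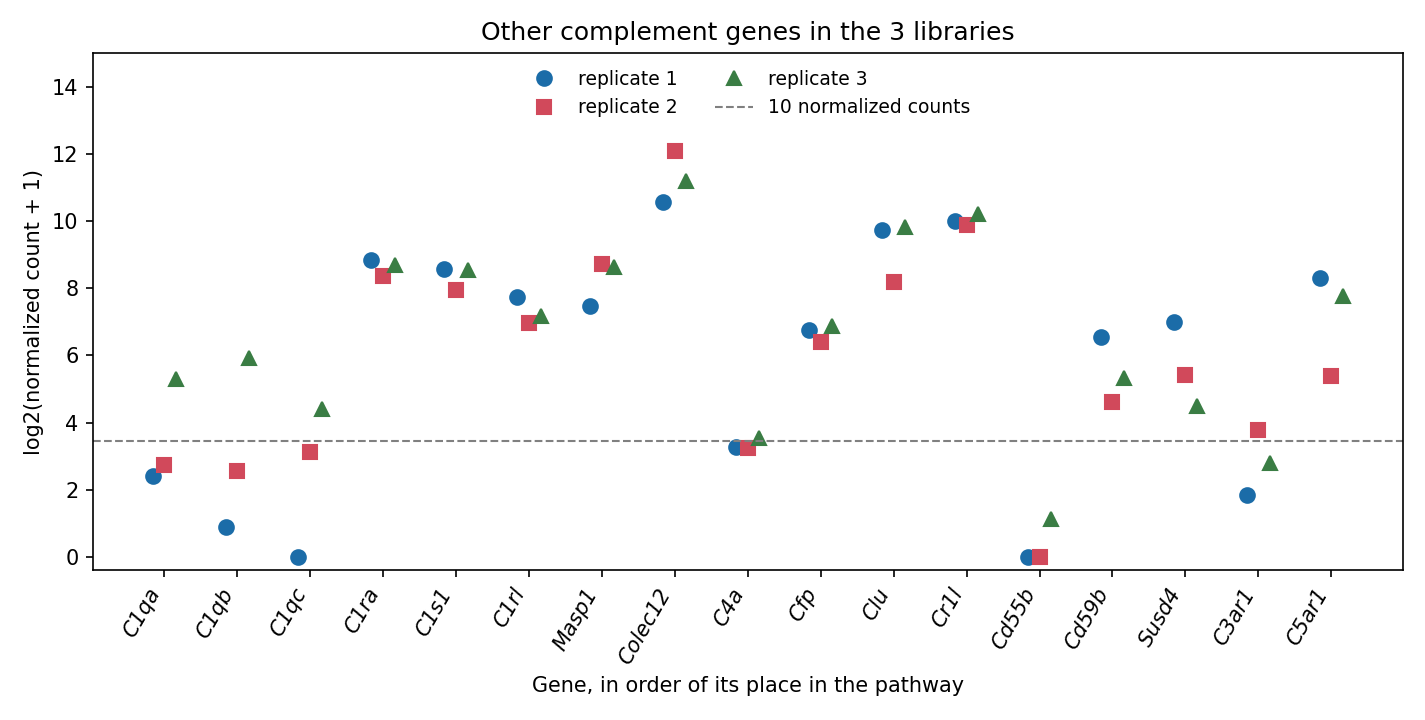
Points are log2(normalized count + 1) in each of the 3 libraries for the 11 detected further complement genes and for C1qa, C1qb, C1qc, C4a, Cd55b and C3ar1, and the dashed line marks 10 normalized counts. Cr1l, C1ra and C1s1 lie close together in the 3 libraries, the C1q chains are highest in replicate 3 and C5ar1 is lowest in replicate 2.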

How the data were processed

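RNA-seq was analysed from 3 libraries of 1 condition, so no test between conditions and no count model with groups could be run. Another 3 columns of per-sample values could not be assigned to a labelled sample and were not used. Per the study's methods, the authors trimmed adapters with ea-utils, aligned single-end reads to mm10 with TopHat, kept unique alignments and summed them over genes by means of HT-Seq count. The gene annotation, overlap mode and strand setting of the counting are not given in the sources used here. The deposited values are a signal, normalized counts that the authors obtained by scaling each library with its own size factor. In each library 100% of the values above 0 were whole multiples of its smallest value (tolerance 0.01 reads), and reads were recovered by division.

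Genes at 10 normalized counts or more in all libraries are called detected. A replicate was taken as apart where it lay more than 2-fold from both others on normalized count + 1, provided the gene averaged 10 or more. The reads of each gene in 2 libraries were set against their size factors by an exact binomial test (two-sided), for genes reaching 10 reads between both, and p-values were adjusted after Benjamini-Hochberg over all genes tested, with calls at 0.05. Scaling by TMM came from edgeR 4.0.16 in R 4.3.3, and Python 3.11.15 with scipy 1.17.1 was used for the rest. Without molecular identifiers, limits such as the 3-read floor reflect counting error alone. Positions and lengths came from GENCODE M21 on GRCm38, the same build as mm10, in which 95.8% of the rows with reads were matched by name. Promoter sequences came from RefSeq on GRCm38.p6. Protein sequences were not analysed here. The pair test and the rule for a replicate apart were tried on simulated data. Counts for the pair test were simulated with counting error alone, so that run does not cover the spread between replicates. The per-kb levels, the motif search and the profile search were not tried in this way. The 8 genes and all lists were chosen with earlier results of these data known. Outside the 8 genes, a complement gene was named at a mean of at least 100 normalized counts, as a copy of a member, or as C1qa, C1qb, C1qc, C3ar1 or C5ar1. Hc, C6, C7, C8a, C8b, C8g, C9, Itgb2, Susd4, Cd46 and the markers were named after their values were seen. A further complement gene of the list is not reported here.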

Additional observations from a re-analysis of the deposited data

How the results depend on the processing

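No paired analysis was possible because the 3 libraries share a single condition. The median SD of the detected complement genes was 0.72 over 3 libraries and lay between 0.20 and 0.44 with a replicate left out, since each replicate left out was the one in which Cd59a, Cd55 or C3 stood apart. Replicate 3 was apart in 2 of the 8 genes, and in 1 with a pseudocount of 10, where C4b at 3 reads no longer passed. With at least 10 normalized counts required in every library, a choice made after the data were seen, replicates 2 and 3 were apart in 1 gene each, Cd55 and C3, as C4b was then left out by construction. Counts of genes apart in replicate 1, of genes detected and of genes called between libraries stayed within 1.5 times under each alternative run. The order per kb kept 6 of 8 ranks or all 8 under the alternatives. Means of the 8 genes moved by less than 1 SD with equal totals and with TMM, whereas leaving out a replicate cannot move a mean of 3 values further than that. Cfb, Cfd and C4b rested on few reads, at most 11 in replicates 1 and 3, and the part of depth in this was not tested.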

Other observations

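Transcripts of signals and factors known to act on complement genes were looked up as well. Of 16 such genes 12 were detected, and Ifng and Ifnb1 had 0 reads in each of the 3 libraries. Il6, an inflammatory cytokine, had 788, 1430.35 and 1491 normalized counts in replicates 1, 2 and 3. Cebpb and Cebpd, the genes of transcription factors of the acute-phase response, were both more than 2-fold lower in replicate 2 than in the other libraries. Cebpb had 1137, 272 and 897 normalized counts, and Cebpd had 1927, 392 and 1767. Of 8 acute-phase and inflammatory secreted genes 7 were detected, among them Saa3 with 3669, 3308 and 5608 normalized counts and Lcn2 with 255, 256 and 519. These were highest in replicate 3, as was 1 other of the 7, whereas Ptx3, the most abundant, with 37768, 18793 and 21528, and Lbp, with 319.5, 101 and 204, were highest in replicate 1, and 2 genes were highest in replicate 2.

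The 9992 genes with a mean of at least 100 normalized counts were searched for profiles like those of the 5 detected complement genes, by the Euclidean distance between centred log2 values over the 3 libraries. Nearest to C3 were Cdh13 at a distance of 0.043 and Rab11fip1 at 0.0781, and 9 genes lay within 0.2. Epha3 at 0.0694 and Wbscr17 at 0.0845 were nearest to Cd55, which had 4 genes within 0.2. For Cd59a these were Wdr89 at 0.0159 and Ctnnd1 at 0.0885, among 16 genes within that limit. Serping1, which varied little, had 1347 genes within 0.2, with Wars and Mta1 nearest, and C2 had 798, with Hhat and 1110038F14Rik nearest. With 3 libraries a profile has few ways to differ, so closeness is a description of these libraries alone.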
